A study of Mus musculus with 12 samples.

Results

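A set of 10 genes of the hypoxia response was followed through the RNA-seq of mouse Th9 cells: *Hif1a*, *Egln1*, *Egln3*, *Vegfa*, *P4ha1*, *Ndrg1*, *Bnip3*, *Hilpda*, *Pdk1*, and *Ankrd37*. They were chosen by symbol, and all 10 were found among the 32051 genes of the deposited table. Naive CD4+ T cells from spleens of C57BL/6J mice, aged 6 to 8 weeks per the methods, were polarized toward Th9 cells, the IL-9-producing helper subset, and RNA was taken on day 4. All 4 groups received IL-4 (10 ng/mL), TGF-β (1 ng/mL), antibodies that block IL-12 and IFN-γ, anti-CD28 (1 μg/mL), and anti-CD3, for which the labels give 5 μg/mL and the methods 2 μg/mL. The groups were DMSO (the vehicle), EpA (endomelipeptide A, a cyclic lipopeptide, 10 μM), fatostatin (5 μM), and EpA with fatostatin at the same doses, with 3 libraries each. The methods list fatostatin as an SREBP inhibitor, and the study used it to inhibit SREBP1, a regulator of lipid synthesis genes. The labels give no genetic change in any group. They also do not say that the 3 libraries of a group came from separate animals or cultures, so p-values measure the spread between these libraries, which may be technical.

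HIF1 is a transcription factor made of an oxygen-regulated α subunit, encoded by *Hif1a*, and the stable partner ARNT. When oxygen is present, prolyl hydroxylases of the EGLN family mark the α subunit for destruction through VHL, so HIF1 is controlled mostly at the protein level, which RNA-seq does not measure. In T cells, antigen receptor and cytokine signals also raise HIF1. Its targets turn cells toward glucose use, restrain the use of pyruvate in mitochondria, and drive mitophagy and the secretion of angiogenic factors.

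HIF1 binds the hypoxia response element, whose core is ACGTG or GCGTG. Both cores were searched on both strands in the 250 bases before the RefSeq transcript starts (build GRCm38.p6), and are shown because these genes are taken as HIF1 targets. The table held starts for 9 of the 10 genes; *Ndrg1* was not matched. At 1 or more starts, 8 of the 9 genes held ACGTG and 9 of 9 held either core, whereas 18.5% of all 27025 genes held ACGTG, 30.9% held GCGTG, and 41.5% held either. Those shares are over all genes with a start, whether or not expressed in these cells, and expressed genes alone were not compared. Of the 12 starts of the 9 genes, 10 lay within 100 bases of a GENCODE transcript start, that of *Hif1a* at 37 bases. The downstream start of *Vegfa*, the one with a core, lay 282 bases from the nearest, and with the 10 starts alone 7 of the 9 genes held ACGTG and 8 held either core. CACGTG, which reads ACGTG on both strands and is also the core of the E-box, was found in 2 of the 9 genes (*Hif1a* and *Bnip3*) and in 6.86% of all genes. At the upstream of the 2 starts of *Vegfa* and of *Hilpda*, neither core was found in this window. One window per gene is printed below on the strand of the gene, with the core in capitals (cores on the opposite strand read CACGT or CACGC); a match is a description and not a binding site.
Hif1a, chr12:73907721-73907748, plus strand, in an intron of the GENCODE gene: acacagacaagCACGTGagcggggcagc
Egln1, chr8:124949365-124949391, minus strand, outside the gene: cccggcccgccGCGTGcgcgcggcccc
Egln3, chr12:54204088-54204114, minus strand, outside the gene: gtgcatctcagACGTGagatccaggtt
P4ha1, chr10:59323269-59323295, plus strand, outside the gene: gtgacagagcgCACGTagcgagggctg
Bnip3, chr7:138909598-138909625, minus strand, outside the gene: cgcacgcgccgCACGTGccacacgctcc
Hilpda, chr6:29272572-29272598, plus strand, before the downstream start, in an exon: atggccagcggACGTGccccagggcga
Pdk1, chr2:71873135-71873161, plus strand, outside the gene: cgcctacatggGCGTGtctttaaccag
Ankrd37, chr8:45999987-46000016, minus strand, in an intron of the GENCODE gene: ccttcactgcgCACGCGTGctgcggccgcc
The printed cores lay from 16 bases before the start in *P4ha1* to 229 bases before it in *Egln3*, with that of *Bnip3* at 108 bases. The 2 cores of *Vegfa* lay before its downstream start, inside a coding exon, and are not printed.

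Values are FPKM, which are scaled for exon length and library size, so levels can be compared between genes. The libraries held 36019700 to 43656700 reads on genes, as recovered from the FPKM, a ratio of 1.21, and 1 read on a gene of 1 kb was worth 0.0225 to 0.0273 FPKM. A gene "passed the test" when its adjusted p was below 0.05 in limma on log2(FPKM + 0.1) over the 13733 genes whose mean reached 0.1 FPKM. All 10 genes were among the tested genes, and log2 fold changes below are on that scale. Markers of T cells were high: the summed level of *Cd3e*, *Cd3d*, and *Cd4* (3 of 4 T cell markers in the table) ranged from 264 to 268 FPKM with DMSO and from 240 to 246 FPKM with EpA, with *Cd3e* and *Cd3d* lower (-0.33 and -0.24 on the log2 scale) and *Cd4* higher (0.15). The 4 Th9 markers summed to 283 to 290 FPKM and 858 to 892 FPKM, most of the gap being *Il9* (54.6 and 640 FPKM on average). *Batf* also rose (75.5 to 95.3 FPKM), *Irf4* fell (156 to 143 FPKM), and *Spi1*, the gene for the Th9 factor PU.1, was nearly absent, with 0 to 18 reads per library, and was not tested. Markers of other cells were low but moved with EpA in part. The 3 platelet markers summed to 1.33 to 2.14 FPKM with DMSO and 2.79 to 3.79 FPKM with EpA, the 5 myeloid markers to 0.0533 to 0.153 and 0.213 to 0.352 FPKM, the 2 CD8 markers to 8.71 to 9.79 and 7.85 to 8.57 FPKM, and the 4 B cell markers to 5.97 to 7.88 and 5.19 to 6.21 FPKM. Within these lists, *Pf4* and *Ppbp* (platelets) rose by 1.02 and 1.35, *Lyz2* (myeloid cells) passed as higher at 0.0371 against 0.186 FPKM, *Cd8a* fell by 1.08 while *Cd8b1* did not pass, and *Cd79a* (B cells) fell by 0.60. The 3 endothelial markers summed to 2.62 to 2.87 and 1.86 to 2.17 FPKM, nearly all of it *Pecam1*, which fell by 0.45 (adjusted p = 0.00113), with *Cdh5* at 0 in all 12 libraries. The 4 dendritic cell markers summed to 0.201 to 0.37 and 0.168 to 0.257 FPKM, with *Xcr1* lower by 0.66 (adjusted p = 0.0338) and *Siglech* at 0 in all 12 libraries. With fatostatin present, EpA raised 1 platelet marker and lowered *Pecam1* (-0.59), *Cd8a* (1.52 to 0.491 FPKM), and 1 B cell marker. Fatostatin alone raised *Lyz2* by 1.15 and 1 platelet marker and lowered *Pecam1* by 0.27. Added to EpA, it lowered *Pecam1* (-0.41) and *Cd8a* and raised 1 B cell marker. The part of these markers in the results was not tested. In bulk RNA, a change in how many cells express a gene cannot be told apart from a change in RNA per cell.

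All 10 genes were higher with EpA than with DMSO, and the EpA libraries did not overlap the DMSO libraries for any of them. All 10 also passed the test as higher, against 14.3% of all tested genes passing as higher and 21.7% with libraries that did not overlap upward. Their median log2 fold change was 0.35, whereas that of all tested genes was 0.0023. The rises were small in fold: only *Hilpda* reached 1.5-fold, against 1.44% of all tested genes that passed and rose by 1.5-fold. In the presence of fatostatin, EpA again raised all 10 genes with no overlap of libraries, against 16.2% of tested genes passing as higher and 22.5% not overlapping upward, and *Vegfa* and *Hilpda* reached 1.5-fold (background 1.89%). With fatostatin against DMSO, 1 gene passed as higher (background 7.69%) and 1 as lower (6.31%). Its libraries lay without overlap above those of DMSO for 1 gene and below for 3 (backgrounds 16.5% and 14.8%). With 10 genes these counts are too near the backgrounds to be a result about the set. No change of the 10 genes reached 1.5-fold when fatostatin was compared with DMSO or added to EpA, the widest being 0.31 and -0.17 on the log2 scale (backgrounds 1.86% and 1.99%).

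**Figure D1:**
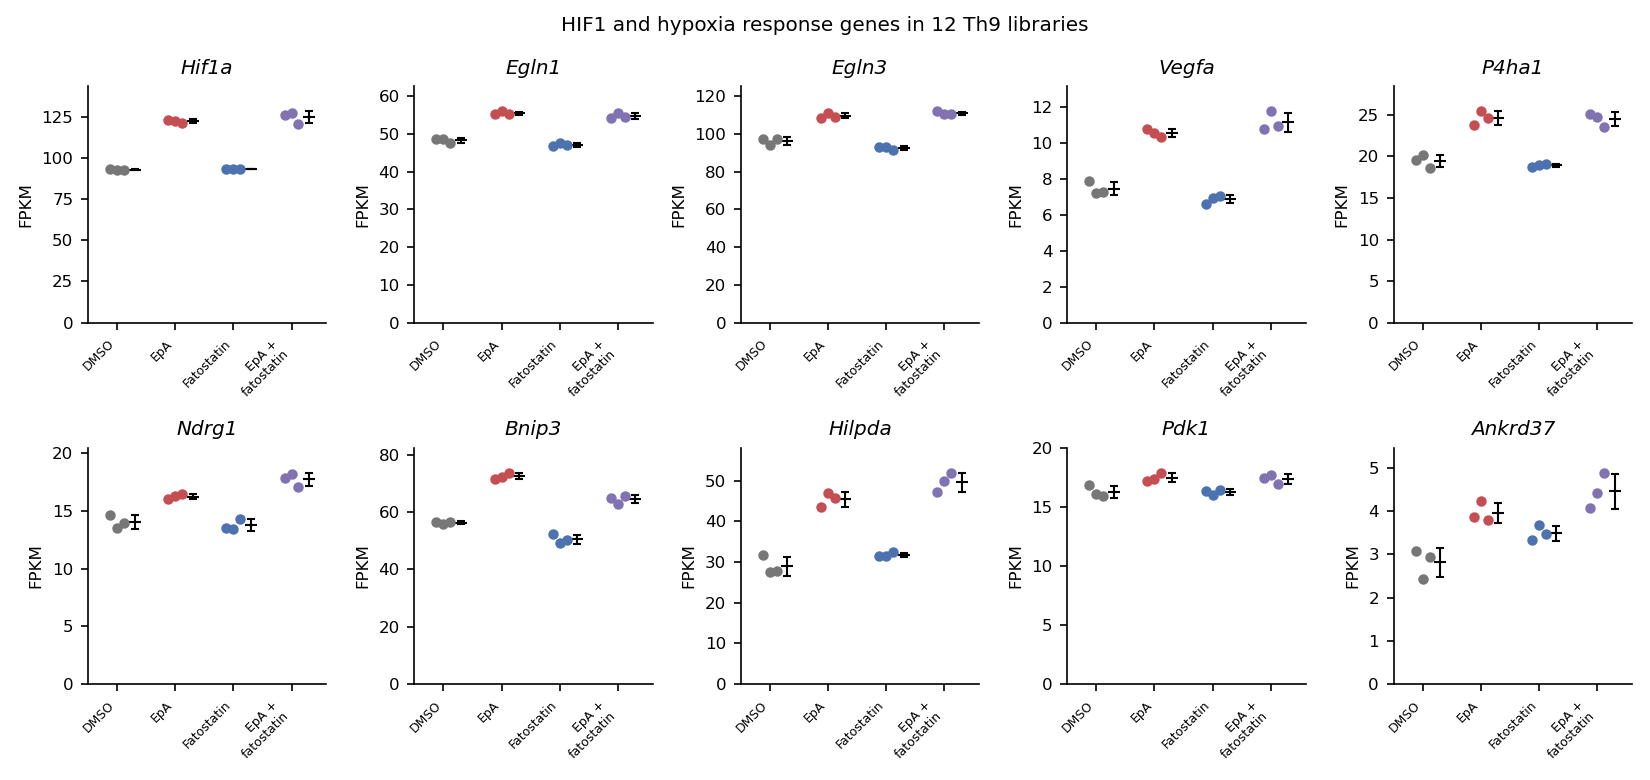
FPKM of the 10 genes (vertical axes, each from 0) in the 4 groups; dots are the 3 libraries of a group, and the bar beside them is the mean with its SD. The EpA and EpA with fatostatin libraries lie above the DMSO and fatostatin libraries in all 10 panels, from 17.5 against 16.3 FPKM on average for *Pdk1* to 45.4 against 29 FPKM for *Hilpda*.

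*Hif1a*, the α subunit gene (chromosome 12, 73901375 to 73947530, plus strand), was among the most abundant of the 10. Its level was 93.3, 92.4, and 92.6 FPKM in the DMSO libraries and 123, 122, and 121 FPKM in the EpA libraries. It was 93.5, 93.1, and 93.3 FPKM with fatostatin and 126, 127, and 121 FPKM with both compounds. The 6 libraries with EpA thus sat well above the 6 without it. The rise with EpA was 0.40 (SE 0.0194, adjusted p = 1.27e-07), or 1.32-fold, and 0.42 with fatostatin present (adjusted p = 7.17e-08). Fatostatin alone left a difference of 0.0077 (95% interval -0.035 to 0.0504, adjusted p = 0.855). The exons of *Hif1a* overlap the antisense gene *Gm15283* over 330 bases and *Gm49321*, a gene on the same strand, over 148 bases, and the strand setting of the counting is not given in the sources used here.

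Of the genes for the other HIF subunits, 1 fell with EpA and the others did not pass the test. *Epas1*, which encodes HIF2α, fell with EpA from 15.1, 15.9, and 16.8 FPKM in the DMSO libraries to 8.01, 8.44, and 8.34 FPKM, a log2 change of -0.94 (SE 0.0427, adjusted p = 7.05e-08). With both compounds it was 8.45, 8.16, and 8.66 FPKM against 16.2, 17.4, and 16.6 FPKM with fatostatin (log2 change -0.98, adjusted p = 4.08e-08). The libraries with EpA lay below all libraries without it in both settings. *Arnt*, the shared partner, was at 12 ± 0.21 FPKM with DMSO and 11.7 ± 0.22 FPKM with EpA (SD, n = 3; log2 change -0.044, adjusted p = 0.301). *Hif3a* was at 0.215 to 0.403 FPKM with DMSO and 0.322 to 0.419 FPKM with EpA and did not pass the test (adjusted p = 0.398). Among the cofactors, *Cited2*, which competes with HIF1α for the coactivators p300 and CBP, fell by 0.37 with EpA (adjusted p = 7.1e-05), and *Crebbp*, which encodes CBP, fell by 0.18 (adjusted p = 0.0407). With fatostatin present, neither passed with EpA (-0.09, adjusted p = 0.133, and -0.12, adjusted p = 0.16), and fatostatin added to EpA raised *Cited2* by 0.20 (adjusted p = 0.00639). The difference between the EpA effects with and without fatostatin passed for neither (*Cited2* 0.27, adjusted p = 0.272, and *Crebbp* 0.063, adjusted p = 0.922).

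**Figure D2:**
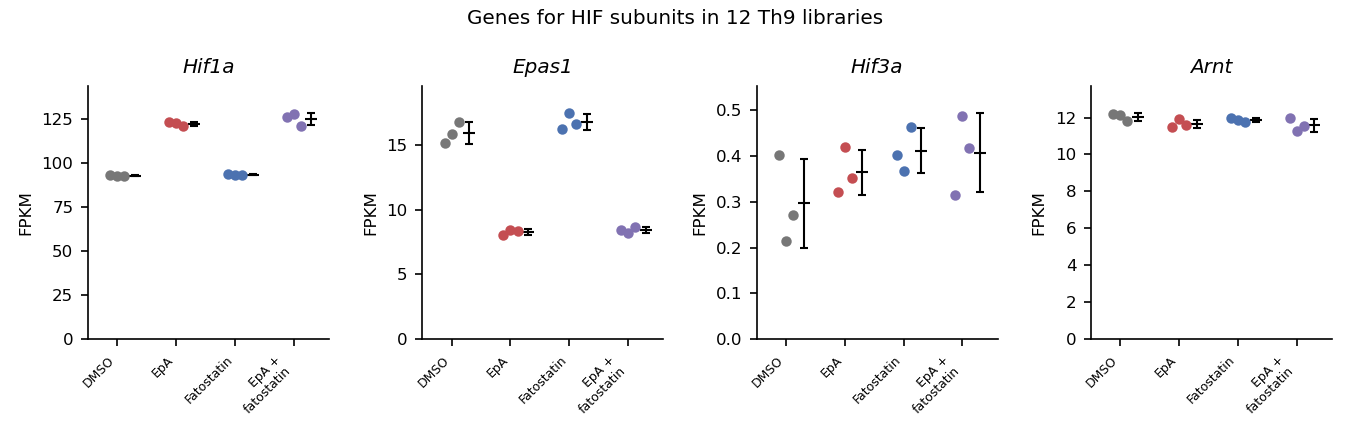
FPKM of the genes for HIF subunits (vertical axes, each from 0) in the 4 groups, with the 3 libraries as dots and the mean with its SD beside them. *Hif1a* rose from 92.8 to 122 FPKM on average with EpA, *Epas1* fell from 15.9 to 8.26 FPKM, and *Arnt* and *Hif3a* did not pass the test.

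*Egln1* (chromosome 8, 124908587 to 124949324, minus strand) and *Egln3* (chromosome 12, 54178981 to 54203860, minus strand) encode PHD2, the main oxygen sensor of the HIF pathway, and PHD3, and both are themselves HIF targets that act as feedback. *Egln1* was at 48.7, 48.6, and 47.6 FPKM with DMSO and 55.3, 56, and 55.2 FPKM with EpA, a log2 change of 0.20 (SE 0.0176, adjusted p = 9.12e-06). *Egln3* was the most abundant of the 10 with DMSO, at 97.6, 94.1, and 97.2 FPKM, and reached 109, 111, and 109 FPKM with EpA, a log2 change of 0.19 (adjusted p = 1.97e-05). For both genes the 3 libraries of each group lay close together, so a rise of about 1.15-fold was larger than the spread. With fatostatin present, EpA raised *Egln1* by 0.22 (46.7, 47.6, and 47 to 54.2, 55.6, and 54.6 FPKM) and *Egln3* by 0.26 (93.2, 93.3, and 91.6 to 112, 111, and 110 FPKM). *Egln2*, which encodes PHD1 and is not a typical HIF target, did not pass with EpA (log2 change -0.074, adjusted p = 0.209) and fell with fatostatin (-0.18, adjusted p = 0.0123). Of the 12 other genes of oxygen sensing and HIF turnover, 2 rose with EpA (*Cul2*, the scaffold of the VHL ligase, by 0.22, and *Eloc*, a part of that ligase, by 0.11), 1 fell (*Os9*, an ER lectin, by 0.17), and 9 did not pass, among them *Vhl* (0.054, adjusted p = 0.346). These counts are near the backgrounds of 14.3% rising and 13.1% falling and are no result about that list.

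*Vegfa* (chromosome 17, 46016993 to 46032369, minus strand), which encodes the angiogenic growth factor VEGF-A, was at 7.87, 7.19, and 7.27 FPKM with DMSO and 10.8, 10.5, and 10.3 FPKM with EpA (log2 change 0.50, SE 0.0455, adjusted p = 1.32e-05). With fatostatin it was 6.61, 6.93, and 7.06 FPKM, and with both compounds 10.8, 11.7, and 10.9 FPKM, so EpA raised it by 0.69 (1.61-fold, adjusted p = 9.59e-07) in that setting. Fatostatin libraries lay below all DMSO libraries, but the difference of -0.11 did not pass the test (adjusted p = 0.131). *Vegfb*, its relative, did not pass with EpA (0.075, adjusted p = 0.517).

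*Hilpda* (chromosome 6, 29272488 to 29275446, plus strand) encodes a lipid droplet protein that inhibits the lipase ATGL, and showed the largest change of the 10 with EpA against DMSO, whereas with fatostatin present that of *Vegfa* was larger. It was at 31.7, 27.4, and 27.8 FPKM with DMSO and 43.4, 47, and 45.7 FPKM with EpA, a rise of 0.65 (SE 0.0528, adjusted p = 5.39e-06) or 1.57-fold. With fatostatin it was 31.5, 31.5, and 32.4 FPKM and with both compounds 47.2, 49.9, and 51.8 FPKM, a rise with EpA of 0.64 (adjusted p = 5.29e-06). The fatostatin libraries overlapped the DMSO libraries because of DMSO replicate 1. The change with fatostatin, 0.14, did not pass (adjusted p = 0.119), and without that library it was 0.20 and passed (adjusted p = 0.0107). *Plin2*, whose product coats lipid droplets, fell by 0.15 with EpA (adjusted p = 0.00464), and *Pnpla2*, which encodes ATGL, did not pass (0.046, adjusted p = 0.497).

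*Bnip3* (chromosome 7, 138890836 to 138909519, minus strand), a receptor for mitophagy on the outer mitochondrial membrane, was the gene of the 10 that fatostatin lowered. Its level was 56.5, 55.9, and 56.6 FPKM with DMSO, 71.4, 72.3, and 73.6 FPKM with EpA, 52.2, 49, and 50.2 FPKM with fatostatin, and 64.8, 62.8, and 65.4 FPKM with both compounds. The 4 groups thus stood apart from each other without overlap, in the order EpA, both compounds, DMSO, and fatostatin. EpA raised it by 0.36 (adjusted p = 1.68e-06) and fatostatin lowered it by 0.16 (adjusted p = 0.00131). Fatostatin also lowered it when EpA was present, by 0.17 (adjusted p = 0.000751). The related *Bnip3l*, another mitophagy receptor, rose by 0.25 with EpA (adjusted p = 1.99e-06) and also rose with fatostatin, by 0.16 (adjusted p = 0.000114), the opposite direction to *Bnip3*. The antisense gene *Gm45507* overlaps 22.3% of the exon length of *Bnip3*, so reads from it cannot be told apart where strand was not used.

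*Pdk1* (chromosome 2, 71873224 to 71903858, plus strand), the kinase that shuts off pyruvate dehydrogenase, changed least. It was at 16.9, 16.1, and 16 FPKM with DMSO and 17.2, 17.4, and 17.9 FPKM with EpA, and at 16.4, 16, and 16.5 FPKM with fatostatin and 17.5, 17.7, and 16.9 FPKM with both compounds. The rise with EpA was 0.10 (SE 0.0287, adjusted p = 0.0203), and 0.092 with fatostatin present (adjusted p = 0.0326). Without DMSO replicate 2, DMSO replicate 3, or EpA replicate 3, the first did not pass (adjusted p = 0.0681, 0.0789, and 0.0784). The second did not pass without fatostatin replicates 1, 2, or 3, or replicates 1 or 2 of both compounds (adjusted p from 0.0529 to 0.111). *Pdk3*, the more abundant relative at 31.4 FPKM on average, did not pass with EpA (-0.024, adjusted p = 0.623).

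*P4ha1* (chromosome 10, 59323296 to 59373304, plus strand) encodes the catalytic subunit of collagen prolyl 4-hydroxylase. It was at 19.5, 20.2, and 18.6 FPKM with DMSO and 23.7, 25.4, and 24.6 FPKM with EpA (log2 change 0.34, adjusted p = 3.54e-05), and at 18.7, 19, and 19.1 FPKM with fatostatin and 25.1, 24.7, and 23.6 FPKM with both compounds (0.37, adjusted p = 1.55e-05). All libraries with EpA were above all libraries without it. Its paralog *P4ha2* rose by 0.53 with EpA from 1.99 to 2.92 FPKM on average (adjusted p = 0.000554), and *P4ha3*, at 0.602 FPKM with DMSO, fell by 0.56 (adjusted p = 0.0471). *P4hb*, their shared partner subunit, did not pass (0.052, adjusted p = 0.0714).

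*Ndrg1* (chromosome 15, 66929318 to 66969640, minus strand) is a stress-responsive gene whose product is implicated in differentiation and growth arrest. Its exons share 419 bases with *Gm17035* and 137 bases with *Gm2895*, both on the opposite strand. It was at 14.7, 13.5, and 13.9 FPKM with DMSO, 16, 16.3, and 16.4 FPKM with EpA, 13.5, 13.4, and 14.3 FPKM with fatostatin, and 17.9, 18.2, and 17.1 FPKM with both compounds. The rise with EpA was 0.21 alone (adjusted p = 0.00157) and 0.36 with fatostatin present (adjusted p = 2.83e-05). Both compounds gave a higher level than EpA, by 0.13 (adjusted p = 0.0434), with no overlap. That call was lost under 11 of 21 alternatives, including without any 1 of 8 libraries, with the highest adjusted p (0.133) without replicate 2 of both compounds. *Ndrg2* rose more, by 0.53 with EpA (8.54 to 12.3 FPKM, adjusted p = 1.83e-05), and also by 0.27 with fatostatin (adjusted p = 0.0046).

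*Ankrd37* (chromosome 8, 45996902 to 46005707, minus strand), which encodes a small ankyrin repeat protein, was the least abundant and rested on 153 to 308 reads per library. It was at 3.07, 2.43, and 2.94 FPKM with DMSO and 3.87, 4.22, and 3.79 FPKM with EpA (log2 change 0.48, SE 0.0905, adjusted p = 0.00218). It was at 3.32, 3.67, and 3.48 FPKM with fatostatin and 4.07, 4.41, and 4.88 FPKM with both compounds (EpA effect 0.34, adjusted p = 0.0149). Fatostatin alone raised it by 0.31 (adjusted p = 0.0448), a call lost under 13 of 21 alternatives, including without any 1 of 9 libraries, with the highest adjusted p (0.134) without DMSO replicate 2. The EpA effect in the presence of fatostatin did not pass without fatostatin replicate 1 (adjusted p = 0.0531) or replicate 3 of both compounds (0.0624). Its exons share 57 bases with *Ufsp2* and 349 bases with *Lrp2bp*, both on the opposite strand, at 10.6 and 0.0779 FPKM on average.

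**Figure D3:**
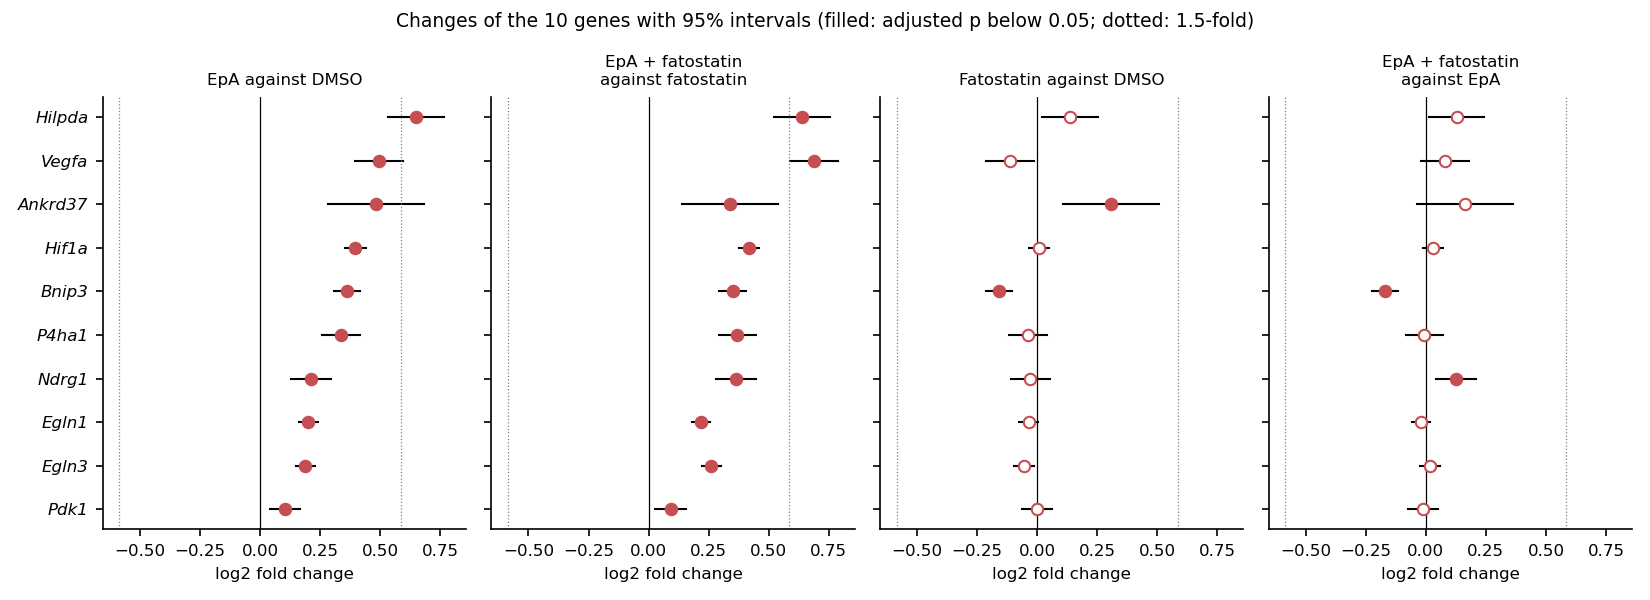
Log2 fold changes (horizontal axes) of the 10 genes in 4 comparisons, ordered by the change with EpA; lines are 95% intervals, filled dots have an adjusted p below 0.05, and dotted lines mark 1.5-fold. All 10 intervals lie above 0 in both comparisons of EpA, from 0.10 for *Pdk1* to 0.65 for *Hilpda* against DMSO, and in the comparisons of fatostatin only *Bnip3*, *Ankrd37*, and *Ndrg1* have a filled dot.

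Whether fatostatin changed the effect of EpA was tested as the difference between the EpA effects with and without it. None of the 10 genes passed in limma, either on FPKM (0 genes, with 3 at an unadjusted p below 0.05) or by voom on recovered reads (0 genes), and 0.0437% of all tested genes passed. Of the 13733 tested genes, 1083 had an unadjusted p below 0.05. The 3 of the 10 genes below it were *Vegfa* (difference 0.19, 95% interval 0.0525 to 0.335, adjusted p = 0.468), *Ndrg1* (0.15, 0.0365 to 0.27, adjusted p = 0.485), and *Egln3* (0.073, 0.0162 to 0.129, adjusted p = 0.502), each with the larger EpA effect in the presence of fatostatin. For *Hif1a* the difference was 0.022 (95% interval -0.0388 to 0.0819), and for *Bnip3* it was -0.013 (-0.0901 to 0.0639). The widest interval was that of *Ankrd37*, -0.43 to 0.14. In the comparison of both compounds with EpA alone, *Ndrg1* passed as higher and *Bnip3* as lower (backgrounds 9.22% and 6.79%), and the libraries did not overlap upward for 3 genes and downward for 1 (18.9% and 14.4%).

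Beyond the 10 genes, the lists of the pathway held 98 genes found in the data, of which 89 were tested. With EpA, 37 of the 89 rose, 7 fell, and 45 did not pass, and their median log2 fold change was 0.077 against 0.0023 for all tested genes, of which 14.3% rose and 13.1% fell. With fatostatin present, EpA raised 43 and lowered 5 (median 0.12), with backgrounds of 16.2% and 13.3%. Fatostatin raised 8 and lowered 8 against DMSO (median -0.0003), beside backgrounds of 7.69% and 6.31%, and in the presence of EpA it raised 17 and lowered 4 (median 0.048), beside 9.22% and 6.79%. The counts for fatostatin against DMSO are near their backgrounds. None of the 89 passed for the difference between the EpA effects with and without fatostatin (background 0.0437%). Of the 20 family relatives of the 10 genes, 17 were tested and *Pgf*, *G0s2*, and *Pdk4* were not. With EpA, 3 rose (*Bnip3l*, *Ndrg2*, and *P4ha2*), 3 fell (*Epas1*, *Plin2*, and *P4ha3*), and 11 did not pass, among them *Vegfc*, *Ndrg3*, *Ndrg4*, and *Pdk2*.

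Among the 23 HIF1 target genes of glucose use, 17 rose with EpA, 1 fell, and 5 did not pass (median 0.17), beside 14.3% rising and 13.1% falling among all tested genes, with a median of 0.0023. *Hk2*, the hexokinase induced by HIF1, rose by 0.44 (27.5 to 37.3 FPKM, adjusted p = 2.02e-06), *Slc16a3*, the lactate exporter MCT4, by 0.36 (43.6 to 56.1 FPKM), and *Slc2a1*, the glucose transporter GLUT1, by 0.31 (39.6 to 49 FPKM). *Aldoc*, an aldolase, fell by 0.16 (adjusted p = 0.0385). *Slc2a3*, the glucose transporter GLUT3, was at 22 FPKM with DMSO and 21.9 FPKM with EpA, and rose with fatostatin by 0.20 (adjusted p = 0.00021) and by 0.37 when fatostatin was added to EpA (adjusted p = 1.76e-06). With fatostatin present, EpA raised it by 0.17 (25.3 to 28.4 FPKM, adjusted p = 0.000405). *Hk2* also rose when fatostatin was added to EpA, by 0.23 (adjusted p = 0.00045), while *Gys1*, glycogen synthase, fell with fatostatin by 0.18 (adjusted p = 0.0103). None of the 23 genes, *Slc2a3* among them, passed for the difference between the EpA effects with and without fatostatin.

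Of 43 other hypoxia response genes found in the data, 37 were tested. With EpA, 17 rose, 1 fell (*Cited2*), and 19 did not pass (median 0.14), beside the same backgrounds of 14.3% and 13.1%. Among those that rose were *Bhlhe40*, a transcriptional repressor active in T helper cells (0.68, from 27.3 to 43.8 FPKM, adjusted p = 7.22e-09) and *Ak4*, a mitochondrial adenylate kinase (0.60, from 8.3 to 12.7 FPKM, adjusted p = 6.08e-06). With fatostatin present, EpA raised these by 0.80 and 0.66, and *Ddit4*, an inhibitor of mTORC1, by 0.59. *Ddit4* was also higher with EpA alone, at 227 to 232 FPKM against 156 to 164 FPKM with DMSO. Fatostatin alone raised *Bhlhe40* by 0.22 (adjusted p = 7.05e-05) and *Zfp395* by 0.33 (adjusted p = 0.000814) and lowered *Rragd*, a Rag GTPase of mTORC1 signaling, by 0.28 (adjusted p = 0.00106). The same 3 genes moved the same way when fatostatin was added to EpA, by 0.33, 0.24, and -0.25.

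**Figure D4:**
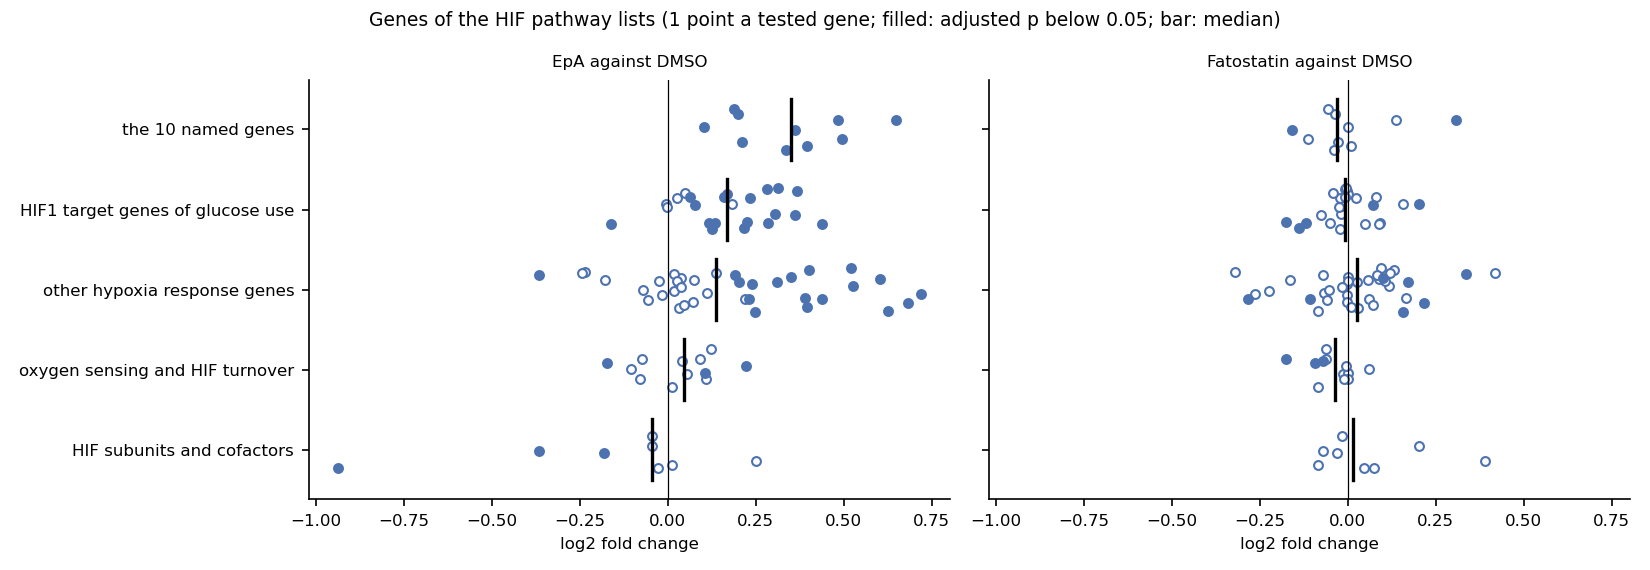
Log2 fold changes (horizontal axes) of the 10 genes and of 4 lists of other pathway genes with EpA (left) and with fatostatin (right) against DMSO; each dot is 1 tested gene, filled at an adjusted p below 0.05, and the bar is the median of the list. With EpA the medians were 0.35 for the 10 genes, 0.17 for glucose use, and 0.14 for other hypoxia response genes, whereas the subunits and cofactors had a median of -0.044, with *Epas1* lowest at -0.94.

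Across the 12 libraries, the 45 pairs among the 10 genes had Pearson's r of 0.53 to 0.98 (median 0.91) on the log2 scale. The 12 points share 4 group means, so these values mostly describe the groups and are given as a description. Of 10297 other genes that averaged 1 FPKM or more, those most like *Hif1a* were *Hspd1*, *Pgam1*, and *Il9* (r = 0.994, 0.993, and 0.993), although *Hspd1* and *Pgam1* have processed copies that can share their reads. Those most like *Vegfa* were *Phb1*, *Nolc1*, and *Prmt1* (0.989, 0.987, and 0.986), those most like *Bnip3* were *Cysltr1*, *Set*, and *Rragd* (0.99, 0.988, and 0.985), and those most like *Hilpda* were *Gls2*, *Hsph1*, and *Crem* (0.986, 0.986, and 0.985). Genes like *Egln1* included *Prmt1* and *Mybbp1a* (0.994 and 0.993), those most like *Egln3* were *Ddb1*, *Mybbp1a*, and *Prmt5* (0.989, 0.988, and 0.987), and those most like *P4ha1* were *Mybbp1a*, *Egln1*, and *Pgam1* (0.985, 0.982, and 0.977). The likeness was lower for *Pdk1* (*Bzw2*, *Mmachc*, and *Med6*, 0.976, 0.958, and 0.957), *Ankrd37* (*Tnfrsf18*, *Pebp1*, and *Rps27l*, 0.976, 0.975, and 0.96), and *Ndrg1* (*Furin*, *Rhebl1*, and *Hsd17b12*, 0.972, 0.97, and 0.968).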

How the data were processed

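RNA was sequenced from 12 libraries of Th9 cells, 3 per group. The authors used Trim Galore to trim paired-end reads, HISAT2 for alignment (GRCm38), and featureCounts for gene counts, which they converted to the deposited FPKM. The annotation release and strand setting are not given in the sources used here. The deposited table held 32352 lines for 32051 genes; 301 repeat lines were left out, and 0 columns belonged to no sample. Exon lengths and positions came from a GENCODE annotation of GRCm38. Reads were recovered from FPKM and these lengths; within 0.02 reads, 98.2% to 98.4% of a library's values were whole.

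Genes averaging 0.1 FPKM or more were tested on log2(FPKM + 0.1) with limma 3.58.1 (R 4.3.3), in 1 fit of the 4 group means with an intensity trend. p-values are two-sided, with Benjamini-Hochberg adjustment over all tested genes. An exact permutation test of 3 against 3 libraries cannot go below p = 0.1 and was not used. Comparisons share groups, so no overlap between them was taken. Replicates of a group differed beyond counting noise (chi-square of 3.1 to 7.26 per gene). The fit was also run on simulated data with known changes, and the outcome is not reported here.

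Named were the 10 genes, their family relatives, per comparison the 6 genes of the pathway lists with the largest change among those that passed and averaged 1 FPKM or more, and 3 genes of most like pattern per gene. The 10 genes and all lists were chosen with earlier results of these data known. Other pathway genes named were picked after their values were seen. A few genes that this rule names are not reported here. Alternatives changed the pseudocount, minimum, scaling, groups fitted, replicate block, fold threshold, test, and libraries.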

Additional observations from a re-analysis of the deposited data

How the results depend on the processing

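The 10 rises with EpA, and the 10 with EpA in the presence of fatostatin, kept their direction under every alternative run, although the call was lost for *Pdk1* under 3 and 8 of 21 alternatives and for *Ankrd37*, with fatostatin present, under 2. Over 1040 recomputed values of the 10 genes, 980 kept their direction and their side of the threshold, 37 no longer passed, 3 newly passed, and 20 changed sign. The last were all of changes that had not passed. The cause of these shifts was not tested.

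With a fold of at least 1.5 also required, 1, 0, 0, and 2 genes passed for EpA, fatostatin, fatostatin added to EpA, and EpA in the presence of fatostatin. For fatostatin against DMSO, 1 gene passed in place of 2 with no minimum, with only the groups compared, and by voom on recovered reads, and 1 to 3 passed when single libraries were left out. For fatostatin added to EpA, 1 passed with no minimum and with median ratio scaling, and 1 to 3 when single libraries were left out. Same-numbered libraries did not deviate together (r from -0.047 to 0.0744 over 18 pairs, and 5 of 12 libraries closest to their own number), so the numbers were not taken as pairs. With the replicate number as a block, 1 gene passed in each of these 2 comparisons.

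With TPM scaling, the change of *Pdk1* with fatostatin was 0.0052 and that of *P4ha1* on adding fatostatin to EpA was 0.0027, both of the other sign, and voom gave 0.0018 for *Pdk1*. With single libraries left out, the changes with fatostatin ranged from -0.058 to 0.0045 for *Ndrg1* and -0.016 to 0.024 for *Pdk1*. Those on adding fatostatin to EpA ranged from -0.031 to 0.021 for *P4ha1* and -0.026 to 0.0062 for *Pdk1*. The differences between EpA effects ranged from -0.075 to 0.028 for *Hilpda*, -0.036 to 0.0068 for *Pdk1*, and -0.034 to 0.011 for *Bnip3*. *Egln3* passed as lower with fatostatin without DMSO replicate 2 (adjusted p = 0.0279), and *Hilpda* passed as higher on adding fatostatin to EpA without DMSO replicate 1 (adjusted p = 0.0418). *Ankrd37* had the fewest reads of the 10 genes, at most 308 in a library.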
